A study of Mus musculus with 15 samples.

Results

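Matrix is degraded in the vessel wall by 2 families of secreted or membrane-anchored zinc proteases, the matrix metalloproteinases (MMPs) and the ADAMTS proteases. The tissue inhibitors of metalloproteinases (TIMPs) hold MMPs in check, and TIMP3 also inhibits several ADAMTS proteases. To describe this system as a whole in the aorta, every gene symbol of the count tables beginning with *Mmp*, *Adamts*, *Adamtsl* or *Timp* followed by a number was taken, which gave 51 of 24982 genes. Of these, 36 had 10 or more counts in at least 5 libraries and were tested: 13 of 23 MMPs, 14 of 19 ADAMTS proteases, 5 of 5 ADAMTS-like proteins and 4 of 4 TIMPs.

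The libraries were RNA-Seq libraries of whole aortas from male C57BL/6 mice of wild-type genotype, 10 months old, 15 libraries in 3 groups of 5. All 15 were from mice that had received Aldo-salt for 7 days, that is, aldosterone by osmotic minipump at 200 µg/kg per day with 0.9% NaCl and 0.2% KCl in the drinking water, and no library without Aldo-salt was compared. The control mice had a sham operation, the orchiectomized mice had their testes removed, and the orchiectomized mice with DHT also received a pellet of dihydrotestosterone (DHT), the potent androgen made from testosterone. Aldo-salt began after 2 weeks of recovery. The control group is therefore not an untreated aorta but an Aldo-salt–treated aorta with intact testes, and the pellet sets an androgen level that need not be that of the intact mouse. The study asked how androgen acts in an aneurysm model, so 3 comparisons were made: orchiectomized against control, orchiectomized with DHT against orchiectomized, and orchiectomized with DHT against control. The first and second share the orchiectomized mice, the first and the last share the control mice, and the second and the last share the DHT-treated mice.

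MMPs are made as inactive zymogens whose propeptide must be cut away, by other MMPs, plasmin, furin-like convertases or serine proteases of leukocytes. Between them the collagenases, gelatinases, stromelysins and metalloelastase cut fibrillar collagen, denatured collagen, basement membrane, proteoglycans and elastin, and loss of elastin and turnover of collagen are hallmarks of aortic aneurysm. ADAMTS proteases cut large proteoglycans such as versican and aggrecan or trim the N-propeptide of procollagen, whereas ADAMTS-like proteins have the ancillary domains but no protease domain and bind fibrillin microfibrils. The 4 TIMPs inhibit MMPs, and TIMP3 also inhibits several ADAM and ADAMTS proteases. Since these enzymes are controlled by activation and inhibition, mRNA levels say nothing of proteolytic activity.

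Of 51 members, 10 lay side by side on chromosome 9 of GRCm38 (mm10), from *Mmp13* at base 7272514 to *Mmp7* at base 7699585, a stretch of 427.1 kb that also holds *Mmp12*, *Mmp1b*, *Mmp3*, *Mmp1a*, *Mmp10*, *Mmp8*, *Mmp27* and *Mmp20*. The sequences before the RefSeq (GRCm38.p6) starts of the 3 tested genes of the cluster and of *Adamts14* are shown because the former were lower and the latter higher with DHT, as described below. Each is the 150 bases directly upstream of the start, with the AP-1 motif TGANTCA in capitals, where N is any base. AP-1, the dimer of FOS and JUN proteins, is the textbook regulator of MMP promoters.

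*Mmp3*, chr9:7445672-7445821, plus strand: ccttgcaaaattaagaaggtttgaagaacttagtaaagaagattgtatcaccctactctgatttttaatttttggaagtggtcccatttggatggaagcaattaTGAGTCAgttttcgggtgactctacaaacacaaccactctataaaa
*Mmp12*, the second of 2 starts, chr9:7347224-7347373, plus strand: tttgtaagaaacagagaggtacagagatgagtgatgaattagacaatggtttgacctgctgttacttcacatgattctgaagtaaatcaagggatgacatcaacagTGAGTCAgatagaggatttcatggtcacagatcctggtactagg
*Mmp13*, chr9:7272364-7272513, plus strand: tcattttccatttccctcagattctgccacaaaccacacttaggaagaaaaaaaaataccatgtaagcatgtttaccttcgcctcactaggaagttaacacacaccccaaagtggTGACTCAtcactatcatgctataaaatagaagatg
*Adamts14*, chr10:61273420-61273569, minus strand: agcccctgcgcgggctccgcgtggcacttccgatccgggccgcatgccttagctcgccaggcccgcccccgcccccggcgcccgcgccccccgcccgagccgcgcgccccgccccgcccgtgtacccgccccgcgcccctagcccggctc

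The first base of the motif was 46 bases before the start in *Mmp3*, 44 in *Mmp12* and 35 in *Mmp13*, and none was in the *Adamts14* stretch. The stretch before the first *Mmp12* start, chr9:7344247-7344396, held no AP-1 motif either. *Adamtsl4*, also called lower with DHT, had none in the 250 bases before its start. No RefSeq promoter was found for the called members *Mmp2*, *Adamts4* and *Adamts15*. Whether the motif goes with the direction of change was not tested. RefSeq promoters were found for 36 of 51 members (39 starts), and on either strand of the 250 bases before the start TGANTCA was in 8 of the 39 (20.5%), against 6.75% of 32851 mouse promoters. All 8 belonged to the chromosome 9 cluster: *Mmp1a*, *Mmp1b*, *Mmp3*, *Mmp7*, *Mmp10*, *Mmp12*, *Mmp13* and *Mmp20*. The TATA motif TATAAA was in 25.6% of member promoters and 12.4% of all promoters, and the half-site AGAACA of the androgen receptor element in 12.8% and 16.1%. These are matches of letters and were not tested for binding.

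Reads in genes ranged from 8268957 to 13816864 per library, and the 51 members together took 0.332% to 0.543% of them. Libraries were compared in CPM (reads of a gene relative to all reads in genes that passed the count filter, scaled by TMM to a common total), and 10 counts corresponded to 0.687 to 1.28 CPM. One library stood apart. Orchiectomized replicate 2 held 22367 counts of the surfactant gene *Sftpc*, against 0 to 57 in the other 14 libraries, and the summed level of 12 lung marker genes was 7651 CPM there, 4.17 to 6.52 CPM in controls, 7.49 to 43.8 CPM in the other orchiectomized libraries and 4.95 to 7.79 CPM with DHT. This library was the highest of all 15 for 7 of 36 members (19.4%, against 22.8% of all genes tested), among them *Mmp2*, *Mmp13* and *Adamtsl4*, and the lowest for 10 (27.8%, against 16.5%), among them *Timp3* and *Adamts2*. Values with and without it are therefore given below. A member was called when the unadjusted *P* value of edgeR's quasi-likelihood test was under 0.01, the threshold the study used, and the Benjamini-Hochberg adjusted *P* value over all 14191 genes tested is given beside it.

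Inhibitor mRNAs made up about as much of the system as all the other members together. Compared per length of the principal transcript, *Timp2* and *Timp3* were the most abundant members, with mean levels of 272.4 and 272.1 CPM per kb over 15 libraries, and their order was not settled, since *Timp2* was above *Timp3* in 7 of 15. Next came *Mmp14*, the membrane-type MMP that activates pro-MMP2, at 87.6 CPM per kb, below *Timp3* in 15 of 15 libraries. *Mmp23* followed at 73.6, *Mmp3* at 60.8, *Adamtsl5* at 53.8 and *Mmp2* at 45.6 CPM per kb, and 6 tested members were under 1 CPM per kb. The order below the first 2 depended on the length used: over the union of all exons *Mmp3* ranked 3, *Mmp23* 4, *Mmp2* 5, *Mmp14* 6 and *Adamtsl5* 11. The 4 TIMPs together took 51.5% ± 1.5 (SD, n = 5) of the summed member level per kb in controls, 50.7% ± 2.7 in orchiectomized mice and 51.1% ± 1.3 with DHT, with a lowest library of 46.0% in the orchiectomized group. The MMPs took 29.4% ± 1.7, 30.7% ± 2.6 and 27.7% ± 1.8, and the ADAMTS proteases 12.1% ± 1.3, 11.5% ± 1.4 and 13.5% ± 0.70.

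**Figure D1:**
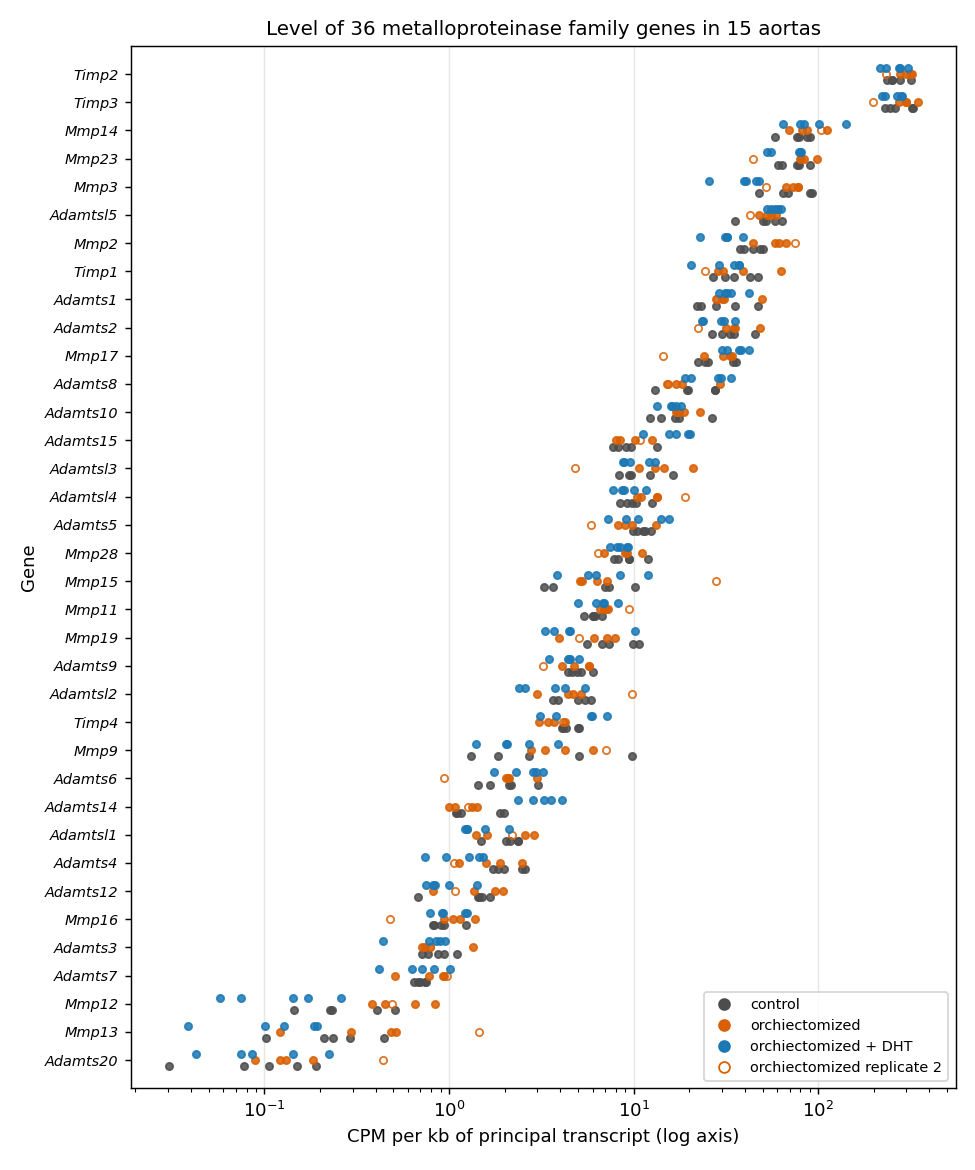
Level of each of the 36 tested members in CPM per kb of principal transcript (x axis, log scale), 1 point per library colored by group, with orchiectomized replicate 2 as an open point and genes ordered by their mean over 15 libraries. *Timp2* and *Timp3*, with means of 272.4 and 272.1 CPM per kb, sit above all other members.

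*Timp3* was at 1229, 1528, 1157, 1545 and 1082 CPM in controls, at 1407, 931, 1639, 1294 and 1418 CPM in orchiectomized mice, and at 1341, 1260.4, 1319.6, 1081 and 1043 CPM with DHT. *Timp2*, which both inhibits MMP2 and helps MMP14 activate it, spanned 875 to 1177 CPM in controls, 863 to 1188 CPM in orchiectomized mice and 804 to 1138 CPM with DHT. Both sets of ranges overlapped throughout. *Timp2* had the smallest spread within groups of all 36 members (coefficient of variation 12.8%, median of members 24.0%). In the comparison of DHT with orchiectomy alone the 95% interval of the log2 fold change was -0.42 to 0.13 for *Timp2* and -0.48 to 0.19 for *Timp3*, so that a change of 1 log2 unit lay outside both. The fold changes themselves were -0.14 and -0.15, or -0.20 and -0.24 without orchiectomized replicate 2. *Timp1*, the inducible TIMP, was at 23.7 to 41.7 CPM in controls, 21.6 to 55.3 CPM in orchiectomized mice and 18.2 to 33.1 CPM with DHT, and its log2 fold change with DHT was -0.21 (SE 0.25, edgeR adjusted *P* = 0.663), or -0.31 without orchiectomized replicate 2. *Timp4* was at 27.7, 22.7, 27.5, 22.6 and 23.7 CPM in controls, at 20.4, 22.6, 16.9, 23.4 and 18.9 CPM in orchiectomized mice, and at 17.0, 32.3, 32.7, 20.7 and 39.4 CPM with DHT. The DHT libraries with the 3 highest values lay above all orchiectomized libraries and the others among them, with a log2 fold change of 0.48 (SE 0.19, edgeR adjusted *P* = 0.164), or 0.53 without orchiectomized replicate 2, which missed the threshold. None of 4 TIMPs passed it in any comparison of all 15 libraries, and *Timp4* was called higher with DHT than with orchiectomy alone when DHT replicate 1 or 4 was left out. Exons of *Timp3* share 21.3% of their bases with *Syn3* on the opposite strand, those of *Timp4* 1.53% with *Syn2*, and *Timp1* lies within an intron of *Syn1*. Whether reads were counted by strand is not given in the sources used here, so reads from the shared bases cannot be told apart between a gene and its antisense partner.

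Orchiectomy compared with sham operation moved few of these genes. One of 36 members was called higher (2.78%) and 0 lower, against 2.11% of all tested genes called higher and 1.12% lower (3.23% together), so the share of members was near that of genes in general. At an unadjusted *P* value under 0.05 there were 4 of 36 members and 1699 of 14191 genes, and 0 members and 0 of all 14191 genes had an adjusted *P* value under 0.05. The split of calls over all genes depended on the scaling and the tool, with 299 higher and 159 lower here, 259 and 196 with RLE size factors, and 313 and 317 with DESeq2, which called the same member. The median log2 fold change was 0.05 over members and 0.04 over all genes. Without orchiectomized replicate 2, 0 members were called and 1 had an unadjusted *P* value under 0.05 (1061 of all genes), against 0.881% of all genes called higher and 0.944% lower. In no member were the 5 orchiectomized libraries all above or all below the 5 controls, as was the case in 1.5% of all genes.

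DHT given to orchiectomized mice went with more differences. Of 36 members, 7 were called (19.4%, against 9.79% of all genes): *Mmp2*, *Mmp3*, *Mmp12*, *Mmp13* and *Adamtsl4* were lower (all genes lower, 7.35%) and *Adamts14* and *Adamts15* were higher (all genes higher, 2.44%). Of these, 5 had an adjusted *P* value under 0.05, all but *Mmp13* and *Adamtsl4*, against 4.82% of all genes. Over all genes 346 were higher and 1043 lower, against 443 and 935 with RLE size factors and 645 and 1075 with DESeq2. By family the calls were 4 of 13 MMPs lower, 2 of 14 ADAMTS proteases higher, 1 of 5 ADAMTS-like proteins lower and 0 of 4 TIMPs. *Mmp12* and *Mmp13* passed the count filter only through the orchiectomized libraries, the group in which they were highest. The filter therefore favored a lower value with DHT for these 2 genes, and their calls are not independent of it. Both were also called in a fit without the filter. The log2 fold change was negative in 25 of 36 members, with a median of -0.18 (all genes -0.02). Without orchiectomized replicate 2, 5 members were called (13.9%, all genes 8.4%), 2 higher (all genes 3.11%) and 3 lower (all genes 5.29%), and 4 had an adjusted *P* value under 0.05 (all genes 2.84%). *Mmp13* and *Adamtsl4* were then not called. The 2 groups did not overlap in 4 members (11.1%, all genes 6.43%), with *Adamts14* above and *Mmp2*, *Mmp3* and *Mmp12* below in the DHT-treated mice.

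Compared with controls, the DHT-treated orchiectomized mice differed in 5 members (13.9%, all genes 3.54%). *Adamts14* and *Adamts15* were higher (all genes higher, 1.53%), and *Mmp2*, *Mmp3* and *Adamts4* were lower (all genes lower, 2.01%). Only *Adamts14* had an adjusted *P* value under 0.05 (all genes 0.261%). Without orchiectomized replicate 2 in the fit the same 5 members were called (all genes 4.78%, 2.25% higher and 2.53% lower) and 2, *Adamts14* and *Mmp3*, had an adjusted *P* value under 0.05 (all genes 0.719%). In 2 members the groups did not overlap (5.56%, all genes 3.56%), *Adamts14* above and *Adamts4* below the controls.

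**Figure D2:**
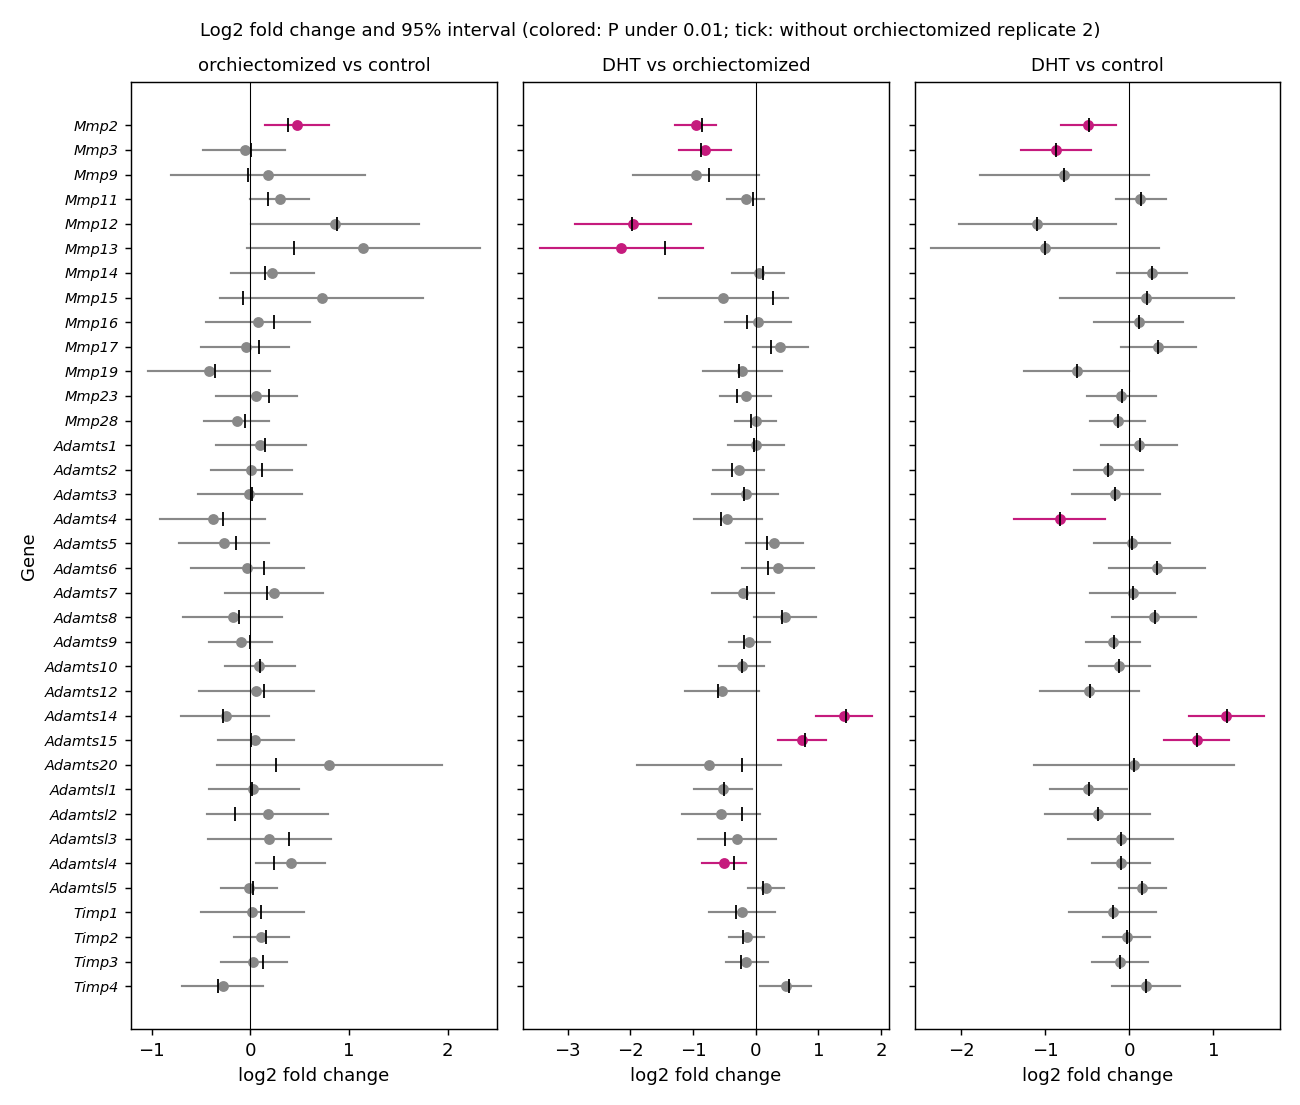
Log2 fold changes (x axis, a separate scale in each panel) of the 36 tested members in the 3 comparisons, with points from all 15 libraries, lines for the 95% interval, color for members called at an unadjusted *P* value under 0.01, and a tick for the value without orchiectomized replicate 2. *Adamts14* stands at 1.41 and *Mmp2* at -0.96 with DHT against orchiectomy alone, and their values without that library were 1.44 and -0.86.

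The gelatinase *Mmp2* (chromosome 8, 92827291 to 92853420) was the member called in all 3 comparisons. MMP2 cuts denatured collagen, type IV collagen and elastin and is made chiefly by fibroblasts and smooth muscle. Its level was 122, 115, 149, 155 and 137 CPM in controls, 179, 231, 206, 189 and 137 CPM in orchiectomized mice, and 96.8, 119.7, 98.3, 70.6 and 98.5 CPM with DHT. All but 1 of 5 orchiectomized libraries were above every control, the highest being replicate 2, and all 5 DHT libraries were below every orchiectomized one. The log2 fold change with DHT against orchiectomy alone was -0.96 (SE 0.15, edgeR adjusted *P* = 0.00676), and -0.86 (adjusted *P* = 0.013) without orchiectomized replicate 2. Orchiectomy alone gave 0.47 (SE 0.15, edgeR adjusted *P* = 0.295), and without replicate 2 the value was 0.38 and not called (edgeR adjusted *P* = 0.645). This call was made in 6 of the 15 fits that each left out 1 library, being lost when control replicate 1, 2, 3 or 5 was left out, or replicate 2, 3 or 4 of the orchiectomized mice, or replicate 3 or 5 with DHT. DHT-treated mice against controls gave -0.49 (SE 0.15, edgeR adjusted *P* = 0.244), or -0.48 (adjusted *P* = 0.162) without orchiectomized replicate 2 in the fit, called in 9 of 15 such fits and lost without control replicate 3, 4 or 5 or DHT replicate 1, 4 or 5. Per kb of transcript, *Mmp2* was at 0.135 to 0.192 of the level of *Timp2* in controls, 0.161 to 0.323 in orchiectomized mice and 0.106 to 0.138 with DHT, the highest value being that of orchiectomized replicate 2.

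The other gelatinase, *Mmp9*, a neutrophil and macrophage product described here after its values were seen, was at 4.17 to 30.9 CPM in controls, 8.83 to 22.4 CPM in orchiectomized mice and 4.45 to 12.3 CPM with DHT. Its groups overlapped, and its log2 fold change of -0.96 with DHT against orchiectomy alone had an SE of 0.47 (edgeR adjusted *P* = 0.26) and was not called. Without orchiectomized replicate 2 it was -0.75.

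**Figure D3:**
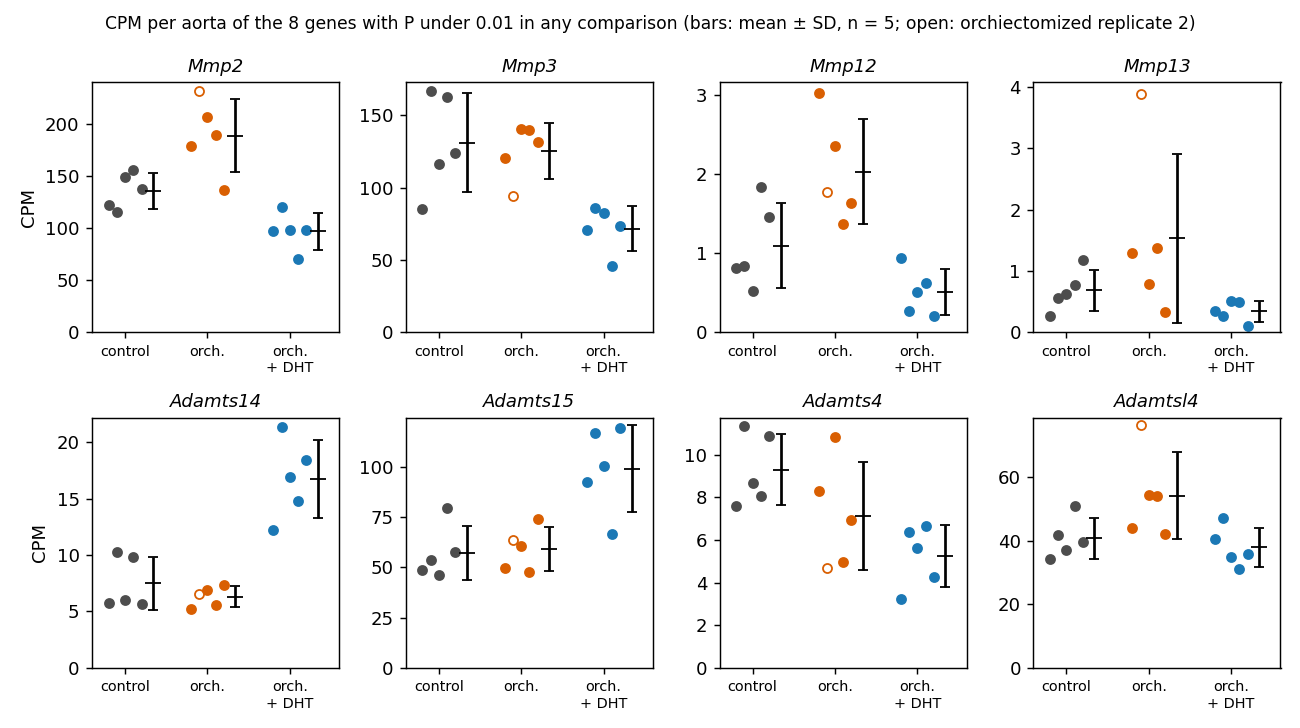
Level in CPM (y axis, linear from 0) of the 8 members called in any comparison, 1 point per library for the control, orchiectomized and orchiectomized with DHT groups, with bars for the mean ± SD (n = 5) and orchiectomized replicate 2 as an open point. The 5 DHT libraries lie above all orchiectomized ones for *Adamts14* and below them for *Mmp2*, *Mmp3* and *Mmp12*.

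The stromelysin *Mmp3* (chromosome 9, 7445822 to 7455975) cuts proteoglycans, fibronectin and laminin and activates other pro-MMPs, and it carries the AP-1 motif shown above. It was at 85.5, 167, 117, 163 and 124 CPM in controls, 121, 94.4, 140.4, 140.1 and 132 CPM in orchiectomized mice, and 71.1, 85.8, 82.4, 45.9 and 73.4 CPM with DHT. The DHT libraries lay below all 5 orchiectomized libraries, and 1 of them, replicate 2, lay just above the lowest control. With DHT the log2 fold change was -0.81 (SE 0.19, edgeR adjusted *P* = 0.0318) against orchiectomy alone and -0.87 (SE 0.20, edgeR adjusted *P* = 0.0894) against controls. The values without orchiectomized replicate 2 were -0.88 (edgeR adjusted *P* = 0.0311) and -0.87 (adjusted *P* = 0.0489). Orchiectomy alone gave -0.06 with a 95% interval of -0.48 to 0.35. Relative to *Timp1* per kb, *Mmp3* was at 1.51 to 2.56 in controls, 1.07 to 2.72 in orchiectomized mice and 1.13 to 1.40 with DHT.

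*Mmp12*, the macrophage metalloelastase, lies near *Mmp3* in the cluster and was measured with few reads. It had 9, 9, 5, 26 and 16 counts in controls, 28, 20, 27, 20 and 20 counts in orchiectomized mice, and 11, 3, 4, 5 and 2 counts with DHT. Each DHT library had fewer counts than any orchiectomized one. In CPM the groups stood at 1.10, 2.03 and 0.510 on average, and the log2 fold change with DHT against orchiectomy alone was -1.95 (SE 0.43, edgeR adjusted *P* = 0.0236), or -1.98 (adjusted *P* = 0.034) without orchiectomized replicate 2. Orchiectomy alone gave 0.86 (SE 0.40, edgeR adjusted *P* = 0.414) and DHT against control -1.10 (SE 0.44, adjusted *P* = 0.363), neither called. Exons of *Mmp12* share 2.17% of their bases with the antisense *Mmp1b*, which had 0 counts.

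*Mmp13*, the main interstitial collagenase of the mouse, rested on 1 library for part of its difference. Its counts were 3, 6, 6, 11 and 13 in controls, 12, 44, 9, 20 and 4 in orchiectomized mice, and 4, 3, 4, 4 and 1 with DHT. The 44 counts were in orchiectomized replicate 2, and replicate 5 of that group had as few as the DHT libraries. DHT against orchiectomy alone gave a log2 fold change of -2.15 (SE 0.61, edgeR adjusted *P* = 0.057), which became -1.44 (SE 0.51, adjusted *P* = 0.138) without orchiectomized replicate 2 and was then not called. The call was also lost without DHT replicate 5. It had the largest spread within groups of the 36 tested members (coefficient of variation 65.7%).

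Of the other genes of the cluster, *Mmp1a*, *Mmp1b* and *Mmp20* had 0 counts in all libraries, and *Mmp7* and *Mmp10* had at most 1 in any. *Mmp8*, the neutrophil collagenase, was described after its values were seen. It had 0, 0, 1, 6 and 0 counts in controls, 5, 9, 12, 4 and 4 in orchiectomized mice, and 0, 0, 0, 0 and 4 with DHT, too few for the filter. In a fit without the filter its log2 fold change was 2.20 (SE 1.00, edgeR adjusted *P* = 0.385) for orchiectomy and -2.63 (SE 1.08, adjusted *P* = 0.185) for DHT against orchiectomy alone, neither called. The remaining untested members, *Mmp21*, *Mmp24*, *Mmp25*, *Mmp27*, *Adamts13*, *Adamts16*, *Adamts17*, *Adamts18* and *Adamts19*, had no library above 23 counts. In the fit without the filter 1 of them was called, *Mmp21*, with 0 counts in every control and 2, 1, 0, 1 and 1 with DHT.

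The membrane-type MMPs and *Mmp23* gave no call. *Mmp14* was at 151 to 233 CPM in controls, 181 to 291 CPM in orchiectomized mice and 167 to 367 CPM with DHT, and its log2 fold change with DHT against orchiectomy alone was 0.05 with a 95% interval of -0.37 to 0.46. That interval excludes a fall of the size seen in *Mmp2*, the substrate that MMP14 activates. *Mmp17*, a GPI-anchored MMP expressed in vascular smooth muscle, was at 92.7 to 219.8 CPM in orchiectomized mice and 192 to 270.4 CPM with DHT, with a log2 fold change of 0.39 (95% interval -0.05 to 0.84), or 0.25 without orchiectomized replicate 2. For *Mmp23* the value was -0.16 (95% interval -0.57 to 0.25), or -0.29 without that library. *Mmp15*, a membrane-type MMP chosen for description after its values were seen, was at 143 CPM in orchiectomized replicate 2 and at 26.3 to 37.0 CPM in the other 4 libraries of that group, and its log2 fold change for orchiectomy went from 0.72 to -0.08 when that library was left out.

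*Adamts14* (chromosome 10, 61197112 to 61273438) gave the clearest difference between groups. With *Adamts2* and *Adamts3* it forms the procollagen N-propeptidases, which trim the amino-terminal propeptide of fibrillar procollagens so that fibrils can assemble. It was at 5.71, 10.3, 6.05, 9.84 and 5.66 CPM in controls, 5.17, 6.54, 6.90, 5.56 and 7.33 CPM in orchiectomized mice, and 12.2, 21.3, 16.9, 14.8 and 18.4 CPM with DHT. The lowest DHT library was above the highest of the other 10. The log2 fold change was 1.41 (SE 0.21, edgeR adjusted *P* = 0.00515) against orchiectomy alone and 1.15 (SE 0.21, adjusted *P* = 0.036) against controls, and it was 1.44 and 1.16 without orchiectomized replicate 2. Orchiectomy alone gave -0.25 with a 95% interval of -0.70 to 0.19. Both DHT calls were made in 15 of 15 fits that left out 1 library. *Adamts2*, the most abundant of these enzymes, was at 194 to 331 CPM in controls, 162 to 350.1 CPM in orchiectomized mice and 169 to 259 CPM with DHT, with a log2 fold change of -0.27 (95% interval -0.68 to 0.14) against orchiectomy alone, or -0.38 without orchiectomized replicate 2. As a share of the summed level per kb of the 3 enzymes, *Adamts14* was 3.12% to 5.25% in controls, 2.61% to 5.17% in orchiectomized mice and 6.94% to 12.8% with DHT.

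Of the proteoglycanases, which cut versican and aggrecan, *Adamts15* (chromosome 9, 30899155 to 30922452, outside the MMP cluster) was higher with DHT. It was at 48.6, 53.8, 46.0, 79.5 and 57.6 CPM in controls, 49.7, 63.8, 60.4, 47.7 and 74.3 CPM in orchiectomized mice, and 92.3, 117, 100.4, 66.6 and 119 CPM with DHT. All DHT libraries but 1 were above all 10 others, and replicate 4 lay among them. The log2 fold change was 0.74 (SE 0.18, edgeR adjusted *P* = 0.0326) against orchiectomy alone and 0.80 (SE 0.18, adjusted *P* = 0.0901) against controls, and they were 0.79 (adjusted *P* = 0.0503) and 0.80 (adjusted *P* = 0.0713) without orchiectomized replicate 2. *Adamts4*, the inducible aggrecanase, was at 7.61, 11.3, 8.66, 8.07 and 10.9 CPM in controls, 8.29, 4.69, 10.8, 4.95 and 6.92 CPM in orchiectomized mice, and 3.25, 6.40, 5.64, 6.67 and 4.24 CPM with DHT. All DHT libraries were below all controls, with a log2 fold change of -0.83 (SE 0.26, edgeR adjusted *P* = 0.236, and -0.83 with adjusted *P* = 0.144 without orchiectomized replicate 2), whereas against orchiectomy alone the value was -0.45 (SE 0.26, adjusted *P* = 0.335) and not called. The call was lost without control replicate 2 or 5 or DHT replicate 1 or 5. *Adamts1* and *Adamts5*, the proteoglycanases highest in CPM, had log2 fold changes of 0.01 (95% interval -0.44 to 0.46) and 0.30 (95% interval -0.16 to 0.75) with DHT against orchiectomy alone, and -0.03 and 0.18 without orchiectomized replicate 2. *Adamts15* made up 8.82% to 13.9% of the summed level per kb of the 7 proteoglycanases in controls, 11.5% to 16.7% in orchiectomized mice and 15.4% to 23.4% with DHT.

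*Adamtsl4*, whose protein binds fibrillin-1 microfibrils and has no protease domain, was at 34.2, 41.7, 37.1, 50.9 and 39.4 CPM in controls, 44.0, 76.4, 54.2, 54.0 and 41.9 CPM in orchiectomized mice, and 40.6, 47.1, 34.9, 31.1 and 35.8 CPM with DHT. The 76.4 CPM were those of orchiectomized replicate 2, and the groups overlapped. DHT against orchiectomy alone gave -0.51 (SE 0.16, edgeR adjusted *P* = 0.0857), and without that library -0.34 (adjusted *P* = 0.199), not called. Leaving out replicate 3 or 4 of the orchiectomized mice, or replicate 3, 4 or 5 with DHT, also ended the call, as did fitting only the groups compared. The other 4 ADAMTS-like genes were not called in any comparison of all 15 libraries. *Adamtsl1* was called lower with DHT than with orchiectomy alone when orchiectomized replicate 5 or DHT replicate 2 was left out, and lower than in controls without DHT replicate 2.

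The proteins that activate, inhibit or are cut by these enzymes were followed in a list of 61 genes, 53 of which were tested. With DHT against orchiectomy alone, 3 were higher and 12 lower (all genes 2.44% and 7.35%), 12 of the 15 with an adjusted *P* value under 0.05 (all genes 4.82%), and the median log2 fold change was -0.35 (all genes -0.02). Lower were the lysosomal cysteine proteases *Ctsk* (-0.91), *Ctss* (-1.31) and *Ctsl* (-0.48), of which cathepsins K and S are elastases, the fibroblast protease *Fap* (-1.29), the convertase *Pcsk5* (-0.92), the sheddases *Adam8* (-3.54), *Adam10* (-0.39) and *Adam17* (-0.33), and *Thbs1* (-1.71), *Comp* (-1.29), *Vwf* (-0.82) and *Col2a1* (-4.68), matrix or plasma proteins several of which ADAMTS proteases cut. Higher were *Hapln1* (1.24) and *Hapln4* (2.17), which link hyaluronan to proteoglycans, and *Ncan* (3.67), a lectican proteoglycan. The values of *Adam8* and *Col2a1* were -1.34 and -1.89 without orchiectomized replicate 2, and 3 genes of the list were then higher and 13 lower. *Adam17* was not called without that library, while *Col1a1* (-0.53) and *Col3a1* (-0.59) were. Against controls (all genes 1.53% higher and 2.01% lower) 2 were higher, *Hapln1* (1.33) and *Ncan* (2.29), and 5 lower, *Thbs1* (-1.76, SE 0.29, edgeR adjusted *P* = 0.0291), *Fap* (-1.05), *Vwf* (-0.75), *Plau* (-0.71) and *Pcsk6* (-0.67). Without orchiectomized replicate 2 *Ncan* was not called there, while *Vcan* (0.62) was higher and *Adam8* (-1.13) lower. Orchiectomy alone (all genes 2.11% higher and 1.12% lower) called *Col2a1* (3.13) and *Adam8* (2.41) higher and *Hapln4* (-1.69) lower, and 0 were called without orchiectomized replicate 2.

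Whole aortas hold several cell types that make these enzymes, and in bulk tissue fewer cells of a type cannot be told apart from less RNA per cell. The labelled tissue was borne out by 8 smooth muscle markers, summing to 14300 to 20520 CPM in controls, 11190 to 20710 CPM in orchiectomized mice and 20150 to 25030 CPM with DHT, 0 of 8 called in any comparison (without orchiectomized replicate 2, 1 was higher with DHT than with orchiectomy alone and 3 than in controls). Fibroblast markers, relevant to *Mmp2* and *Mmp3*, summed to 3062 to 4511 CPM, 3248 to 4665 CPM and 2115 to 3480 CPM, and 3 of 8 were lower with DHT than with orchiectomy alone (4 without orchiectomized replicate 2). Macrophage markers, relevant to *Mmp12*, summed to 359 to 927 CPM, 613 to 1422 CPM and 334 to 646 CPM. Of these markers 4 of 8 were lower (2 without that library), 0 of them at an adjusted *P* value under 0.05. The highest macrophage sum was that of orchiectomized replicate 2, as was the highest neutrophil sum of 1151 CPM. Most of its neutrophil sum came from *Ltf* (12612 counts, against 1 to 44 in the other libraries), and it had 10727 counts of *Lyz2*, against 1391 to 4921, both genes that lung epithelium also expresses. Mesothelial markers, from the lining of the thoracic and abdominal cavities, summed to 43.5 to 112 CPM in controls, 69.8 to 847 CPM in orchiectomized mice (at most 108 CPM without replicate 2) and 16.0 to 35.0 CPM with DHT, and 8 of 8 were lower (7 without that library). Of the other lists, 3 of 8 endothelial, 5 of 6 tested neutrophil, 7 of 7 tested T cell and 5 of 5 tested B cell markers were lower with DHT than with orchiectomy alone (all genes 7.35%), and 3 of 6 skeletal muscle markers were higher (all genes 2.44%). Without orchiectomized replicate 2 these counts were 3, 2, 6 and 5 lower and 5 higher. Of 12 clock genes 1 was lower (0 without it). All 3 tested lung markers were lower with DHT than with orchiectomy alone and higher with orchiectomy than in controls, and 2 of them, *Scgb1a1* (-1.69 and 2.11) and *Napsa* (-1.66 and 1.42), were still called in both comparisons without orchiectomized replicate 2. For orchiectomy against control (all genes 2.11% higher and 1.12% lower), beside the call of *Mmp2*, 5 of 6 neutrophil, 6 of 7 T cell and 5 of 5 B cell markers and 6 of 12 clock genes were higher (5, 4, 5 and 6 without that library), as were 2 of 8 mesothelial markers (0 without it). Lower were 1 clock gene, 2 of 6 skeletal muscle, 1 of 6 adipocyte and 1 of 4 brown fat markers (1, 3, 1 and 0 without it). None of the markers had an adjusted *P* value under 0.05 for orchiectomy against control. For DHT against control (all genes 1.53% higher and 2.01% lower), 5 of 8 mesothelial, 3 of 8 endothelial, 2 of 8 fibroblast markers and 1 of 12 clock genes were lower (7, 3, 2 and 1 without orchiectomized replicate 2), and 2 of 6 neutrophil markers and 5 of 12 clock genes were higher (2 and 5 without it). Immediate early genes, which include *Fos* and *Jun* of the AP-1 dimer, summed to 391 to 768 CPM in controls, 420.2 to 1170 CPM in orchiectomized mice and 389 to 823 CPM with DHT, and 0 of 8 were called in any comparison. No defining marker of these lists was at 0 in a whole group except in the lung list, with *Sftpc* and *Slc34a2* at 0 in controls and *Cldn18* and *Nkx2-1* at 0 with DHT. The part of these shifts in the member results was not tested.

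**Figure D4:**
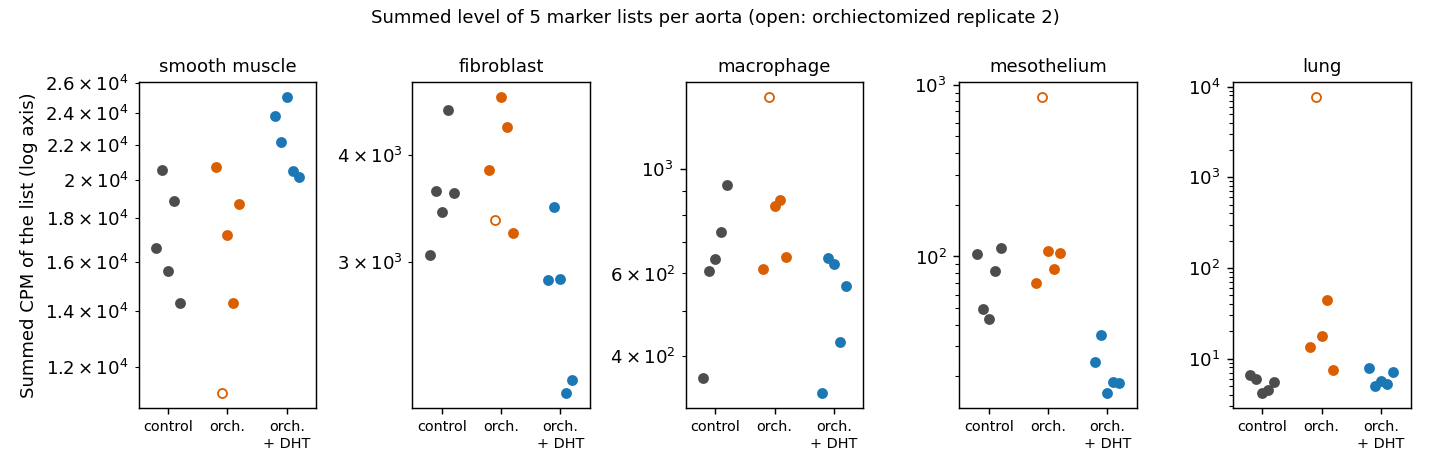
Summed CPM (log axes, a separate scale in each panel) of the smooth muscle, fibroblast, macrophage, mesothelium and lung marker lists, 1 point per library by group, with orchiectomized replicate 2 as an open point. Mesothelial sums with DHT (16.0 to 35.0 CPM) lie below all other libraries, and the lung sum of 7651 CPM belongs to orchiectomized replicate 2.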

How the data were processed

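Whole-aorta RNA was sequenced from 15 poly(A)-enriched libraries, 5 per group. The values deposited by the authors are raw counts, 1 per gene symbol and library, and the submitters' processing notes name mm10, STAR, Cufflinks and DESeq2. The counting program, annotation and strand setting are not given in the sources used here. Entries naming no gene (no feature, 6.26% to 14.4% of reads, ambiguous, 1.34% to 1.97%) were left out. The labels do not say that each library is 1 mouse, so *P* values measure the spread between these libraries.

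Genes with 10 or more counts in at least 5 libraries (14191) were tested with edgeR 4.0.16 in R 4.3.3 (TMM, quasi-likelihood, 3 groups, no covariates). The method was also run on counts simulated from its own fitted spread. That simulation held no library like orchiectomized replicate 2, so it cannot show how the test behaves with such a library. The common biological coefficient of variation was 0.298, and the SE of a member's log2 fold change had a median of 0.21 (0.13 to 0.64). SEs were obtained from the fold change and the F statistic. The alternatives were DESeq2 1.42.0, RLE size factors, other filters, only the compared groups, a replicate block, an adjusted *P* value threshold of 0.05 and leaving out each library. Replicate numbers named libraries only. Pairs of libraries within a group differed by more than sampling noise.

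Levels per kb used GENCODE M21 principal transcripts, and promoters came from RefSeq (GRCm38.p6). Named with values were members with *P* under 0.01 in any comparison, the 10 highest by CPM, every TIMP and *Mmp2*. The members and the lists were chosen with earlier results of these data known.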

Additional observations from a re-analysis of the deposited data

Results flagged for a closer look

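Of 108 groups of 5 libraries (36 members in 3 groups), 9 held 1 library far from the other 4 by Dixon's criterion, against 5.4 for a chance rate of 1 in 20. Of these, 3 were in orchiectomized replicate 2, the library with lung transcripts: *Mmp15* at 142.6 CPM (the others 26.3 to 37.0), *Mmp11* at 21.66 CPM (14.98 to 16.7) and *Adamts20* at 2.652 CPM (0.538 to 1.10). Orchiectomized replicate 5 was high for the proteoglycanases *Adamts1*, at 243.2 CPM (136.8 to 150.3), and *Adamts8*, at 106.7 CPM (54.9 to 66.3). *Adamts3* was at 5.327 CPM in orchiectomized replicate 3 (2.80 to 3.09), *Mmp19* at 34.7 CPM in DHT replicate 4 (11.3 to 15.4, with 22.3% of its exon bases shared with the antisense *Tmem198b*), *Mmp16* at 6.229 CPM in control replicate 4 (4.11 to 4.68) and *Adamts12* at 5.799 CPM in control replicate 1 (12.3 to 14.2). None of these 9 genes was called in a comparison of all 15 libraries. Without orchiectomized replicate 5, *Adamts8* was called higher with DHT than with orchiectomy alone, and without DHT replicate 4, *Mmp19* was called lower with DHT than in controls.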

How the results depend on the processing

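The member higher with orchiectomy (1, *Mmp2*) was not called without the filter, with only the groups compared, or at an adjusted *P* value under 0.05 (0 each). At that last threshold, DHT against orchiectomy alone had 3 members lower instead of 5, and DHT against control 1 higher instead of 2 and 0 lower instead of 3. When each library was left out in turn, the members called higher and lower ranged from 0 to 2 and 0 to 0 for orchiectomy, 2 to 3 and 3 to 6 for DHT against orchiectomy alone, and 2 to 2 and 1 to 4 for DHT against control. Over all 14191 genes the calls in both directions in these fits ranged from 239 to 702, 995 to 1583 and 282 to 679. The calls of *Adamts14*, *Adamts15*, *Mmp2*, *Mmp3* and *Mmp12* with DHT against orchiectomy alone, and of *Adamts14*, *Adamts15* and *Mmp3* against control, were made in all 15 of these fits and in the DESeq2, RLE, filter, compared-groups and block fits. filterByExpr removed *Mmp13*, and *Adamtsl4* was not called with only the groups compared. Calls over all genes ranged from 291 to 752 for orchiectomy, 1084 to 1720 for DHT against orchiectomy alone and 395 to 693 for DHT against control over the fits with all libraries, and the cause was not tested.

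Among members named by the rule, the log2 fold changes that changed sign were the following. For orchiectomy, *Adamts2* was at -0.01 and *Timp1* at -0.01 with DESeq2, RLE size factors or only the groups compared, *Adamts2* and *Timp1* at -0.03 and *Timp3* at -0.01 without the filter. With a library left out, the log2 fold change for orchiectomy ranged from -0.09 to 0.30 (*Adamts1*), -0.05 to 0.20 (*Adamts15*), -0.16 to 0.14 (*Adamts2*), -0.15 to 0.09 (*Mmp17*), -0.04 to 0.19 (*Mmp23*), -0.20 to 0.04 (*Mmp3*), -0.25 to 0.12 (*Timp1*) and -0.08 to 0.13 (*Timp3*). For DHT against orchiectomy alone it ranged from -0.09 to 0.20 (*Adamts1*), -0.13 to 0.18 (*Mmp14*) and -0.31 to 0.06 (*Timp1*), and for DHT against control from -0.11 to 0.15 (*Adamts5*) and -0.10 to 0.04 (*Timp2*).

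Replicate numbers did not pair the libraries: 4 of 15 same-numbered pairs had deviations from their group means correlated above 0.1 (range -0.463 to 0.46, other pairs -0.675 to 0.683), and 3 of 15 libraries correlated best with their own number. With a replicate block, 0 members were higher with orchiectomy, 1 instead of 3 was lower with DHT than in controls and 4 instead of 5 than with orchiectomy alone, *Timp1* was at -0.03 for orchiectomy and *Adamts5* at 0.00 for DHT against control. Over all genes, that fit called 185 instead of 299 higher with orchiectomy. With DHT it called 236 instead of 285 lower than in controls and 867 instead of 1043 lower than with orchiectomy alone. Depth limits the 15 untested members, *Mmp12* and *Mmp13*.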
